A study of Homo sapiens with 4 samples.

Results

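The 14-3-3 genes encode small acidic adaptor proteins that work as dimers and bind partners carrying a phosphorylated serine or threonine in a short docking motif. Binding can hold a partner in the cytoplasm, cover its active site or keep it in an inactive shape, so these abundant proteins act downstream of many kinases. Human cells have a gene for each of the isoforms beta (YWHAB), epsilon (YWHAE), gamma (YWHAG), eta (YWHAH), theta (YWHAQ), zeta (YWHAZ) and sigma (SFN). The members described here are the 6 YWHA genes, chosen by gene name. The family was picked because YWHAZ was the 1 transcript whose 5′UTR reads per CDS read were called higher with G418, so every member value in that contrast is given as a description, without a p-value. Where members passed the threshold, their number stands beside the share of all transcripts that did, and nothing is read from it.

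Ribosome profiling reads out the stretches of mRNA covered by ribosomes (ribosome protected fragments, RPFs). The libraries came from HEK293T cells, an established line derived from human embryonic kidney that carries a viral large T antigen, with 2 libraries (A and B) from untreated cells and 2 from cells that received G418 at 500 µg/mL for 24 hr. G418 is an aminoglycoside antibiotic that acts on the ribosome's decoding site, and the untreated cells received no agent. Of the 6 members, 5 were listed in all 4 count tables, among 8568 transcripts listed in all tables and 9271 listed in any.

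YWHAH, on chromosome 22 from 31944535 to 31957603 on the plus strand, was listed in none of the tables and has no value here. SFN, an isoform known from epithelia, was listed in untreated B alone, with 3 CDS reads. The lowest CDS density in any table was just above 1 RPKM (reads scaled to CDS length and library size), so absence from a table is not a measured zero. The study also discarded transcripts that overlap those of a neighboring gene. Why YWHAH is absent was not tested. The neurofilament gene NEFL, which this line expresses, had a CDS density of 46.6 to 54.2 RPKM over the 4 libraries. The leukocyte genes PTPRC and CD3E, the hepatocyte genes ALB and APOA1 and the endothelial genes PECAM1 and VWF were listed in none.

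Recovered mRNA reads numbered 6082600 in untreated A, 2440204 in untreated B, 5677910 in G418 A and 4763858 in G418 B. Untreated B was thus the shallowest library. The CDS reads of the untreated replicates also differed from each other more than those of the G418 replicates, with a chi-square per transcript of 4.09 against 1.33. All intervals below reflect counting error alone. For a value with 1 number per library, an exact two-sided permutation test of 2 libraries against 2 cannot give a p-value below 0.333.

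The 5 listed members differ in where their counted transcripts start and stop. Coordinates are from hg38 with GENCODE release 44, in which all 5 transcripts have the region lengths and stop codons of the deposited tables. YWHAB lies on chromosome 20 from 44885705 to 44908532 on the plus strand. YWHAE on chromosome 17 from 1345328 to 1400214, YWHAG on chromosome 7 from 76326799 to 76358991 and YWHAQ on chromosome 2 from 9583972 to 9630616 are on the minus strand. Their annotated 5′UTRs are 185 nt long in YWHAB, 104 nt in YWHAE, 183 nt in YWHAG and 164 nt in YWHAQ, and none holds an ATG upstream of the start codon. The start codons of these 4 genes are shown with 12 nt before the first base and 6 nt from that base on. The ATG is in capitals, and the 5′UTR reads described below lie upstream of it.
YWHAB start: cctcccacgggaATGaca
YWHAE start: gccgctgccgctATGgat
YWHAG start: agccccgcgaagATGgtg
YWHAQ start: cccgcgcccgccATGgag

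The counted normal termination codon (NTC) of these transcripts is UAA. The stop contexts are shown with 12 nt before the first base of the stop codon and 15 nt from that base on. The NTC and the nucleotide after it are in capitals, because the readthrough values below are set beside transcripts that share these 4 nt.
YWHAB counted stop: gagggagagaacTAATgtttctcgtgc
YWHAE counted stop: atcagtgagacaTAAGccaacaagaga
YWHAE MANE stop: gacgaaaatcagTGAGacataagccaa
YWHAG counted stop: gaaggcaacaatTAAGgccccagggga
YWHAQ counted stop: ggggctgaaaacTAAAtccatacaggg

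YWHAE has 2 lines because its counted transcript is not the usual epsilon mRNA. It has 3 exons and encodes 107 amino acids, whereas the MANE transcript, the reference isoform agreed between annotation projects, has 6 exons and encodes 255. Both share the start codon. The MANE stop codon is UGA followed by G at 1345447 to 1345449, and the counted UAA at 1345440 to 1345442 starts 7 nt further downstream in another frame. Reads from ribosomes on either isoform fall on their shared sequence and cannot be told apart. YWHAZ lies on chromosome 8 from 100920642 to 100951276 on the minus strand, has a 5′UTR of 102 nt without an upstream ATG, and ends in UAA followed by C. Its counted transcript also differs from its MANE transcript. It begins in another first exon and has a 3′UTR of 51 nt in place of 4170 nt, but shares the start and stop codons, and it is 1 of 18 coding transcripts of the gene. YWHAQ too was counted on another transcript than MANE, with 5 exons in place of 6 and a 5′UTR of 164 nt in place of 139 nt, but with the same start and stop codons.

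Ribosomes translated the 5 members at high and steady levels, and epsilon was the most densely occupied over its counted CDS. Its density covers 291 counted nt of the transcript for 107 amino acids, against 705 to 711 nt for the others listed. The order and the shares given below therefore compare unlike regions. CDS densities in untreated A, untreated B, G418 A and G418 B were 1081, 918, 1080 and 965 RPKM for YWHAE. They were 639, 566, 653 and 633 RPKM for YWHAQ. The YWHAB densities were 532, 441, 519 and 472 RPKM in the same order. Those of YWHAZ were 474, 378, 448 and 430 RPKM, and those of YWHAG 273, 254, 252 and 229 RPKM. The order epsilon, theta, beta, zeta, gamma held within each of the 4 libraries. Across libraries the densities of YWHAB and YWHAZ overlapped, while those of the other neighbours did not. YWHAE ranked between 102 and 126 among the 8838 to 9031 transcripts of a library, and YWHAG between 474 and 543.

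**Figure D1:**
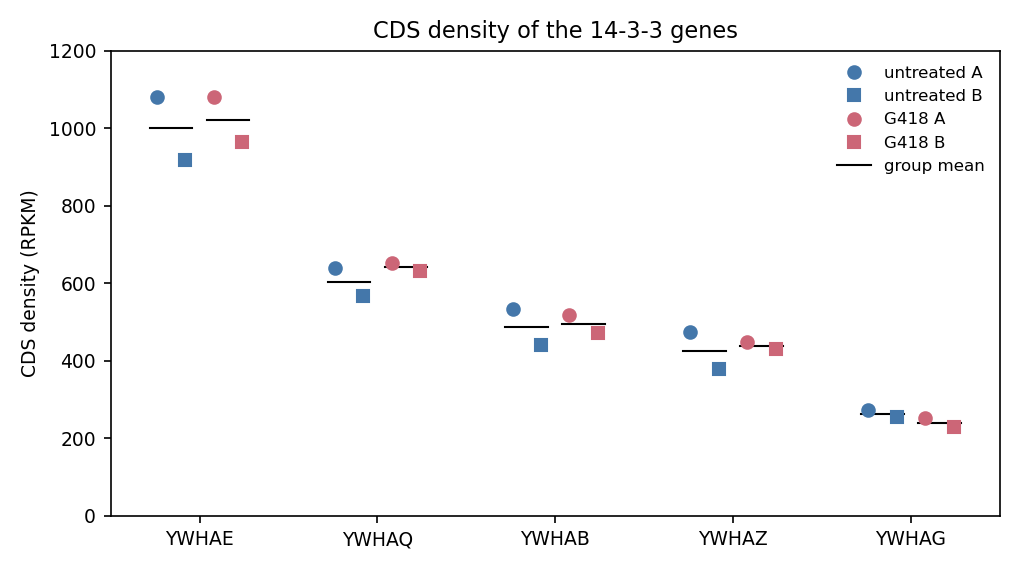
CDS density in RPKM (y axis, from 0) of the 5 listed 14-3-3 genes (x axis) in each library, with circles for replicate A, squares for replicate B, blue for untreated, red for G418 and a line for each group mean. YWHAE lies between 918 and 1081 RPKM and YWHAG between 229 and 273 RPKM, and the colors overlap for every gene except YWHAG.

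The family took 0.258% and 0.241% of CDS reads in untreated A and B, and 0.258% and 0.263% in G418 A and B. Of the summed CDS density of the 5 members, YWHAE held 36.0% ± 0.0970 (SD, n = 2) in untreated and 36.0% ± 0.875 (SD, n = 2) in G418-treated cells. YWHAQ held 21.7% ± 0.603 and 22.7% ± 0.749, and YWHAB 17.5% ± 0.351 and 17.4% ± 0.195. YWHAZ held 15.3% ± 0.729 and 15.5% ± 0.424, and YWHAG 9.51% ± 0.574 and 8.46% ± 0.104. As shares, the neighbours YWHAB (17.2% to 17.7%) and YWHAZ (14.8% to 15.8%) did not overlap over the 4 libraries. The gamma share was thus the 1 share whose libraries did not overlap between conditions.

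These levels carry an uncertainty from related genes. Processed pseudogenes are copies of an mRNA inserted elsewhere in the genome, and GENCODE names 9 for YWHAZ, 8 for YWHAQ, 6 for YWHAE, 2 for YWHAB and none for YWHAG. Of all 28 nt windows of the counted CDS, 92.4% in YWHAZ were also found in transcripts of other genes, against 47.5% in YWHAE, 19.97% in YWHAQ, 12.6% in YWHAB and 1.67% in YWHAG. The 12 such windows of YWHAG match YWHAH. Reads from such windows were placed at 1 of several equal positions, so RPFs of these genes and of their copies cannot be told apart there. No 5′UTR window of any of the 5 was shared.

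Changes of CDS reads between conditions were small for each member. The files used here hold RPFs alone, scaled within each library, so less mRNA of a gene and fewer ribosomes per mRNA cannot be told apart. The fitted log2 fold changes, G418 against untreated, were -0.05 (SE 0.0852) for YWHAB, -0.04 (SE 0.0861) for YWHAE, 0.02 (SE 0.0818) for YWHAQ and -0.03 (SE 0.0883) for YWHAZ. Signs of these 4 depend on the scaling or on a single library, and with library totals in place of TMM the median over all tested was 0.11. YWHAG had the largest of the 5, -0.21 (SE 0.0904), and it kept that sign under the 9 alternatives run. Both G418 libraries lay below both untreated ones for YWHAG, as for 13.6% of transcripts listed in all tables. None of the 5 was called at an adjusted p-value of 0.05, where 5.31% of 8494 transcripts tested were called higher, 3.21% lower and 8.52% in either direction, and the median log2 fold change was 0.00246. YWHAG was called lower when either untreated library was left out, with log2 fold changes of -0.21 and -0.20, in fits that called 803 and 1092 transcripts lower in place of 273. With library totals 887 were called higher and 120 lower, and with DESeq2 113 and 140, beside 451 and 273 in the edgeR fit.

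The family was picked by the 5′UTR reads of the zeta gene, so they are given as a description. Per 1000 CDS reads, its G418 values lay on either side of those of YWHAQ, 4.41 and 4.97 in G418 A and B. YWHAZ had 1 and 0 5′UTR reads in untreated A and B, and 17 and 9 in G418 A and B. Per 1000 CDS reads these are 0.335 (95% Clopper-Pearson interval 0.00848 to 1.87) and 0 (up to 3.57) in untreated cells, and 6.42 (3.74 to 10.3) and 3.87 (1.77 to 7.35) in G418-treated cells. Both G418 libraries were higher than both untreated ones, which held for 13.5% of the 3656 transcripts tested. The G418 values of this counted 5′UTR nevertheless stayed low. They exceeded those of 5.14% and 2.11% of tested transcripts, whose medians were 58.0 and 59.9 per 1000 CDS reads in G418 A and B. The counted 5′UTR is not that of the MANE transcript, and 92.4% of the CDS windows are shared with other genes. The rank is therefore not one for all zeta mRNAs.

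**Figure D2:**
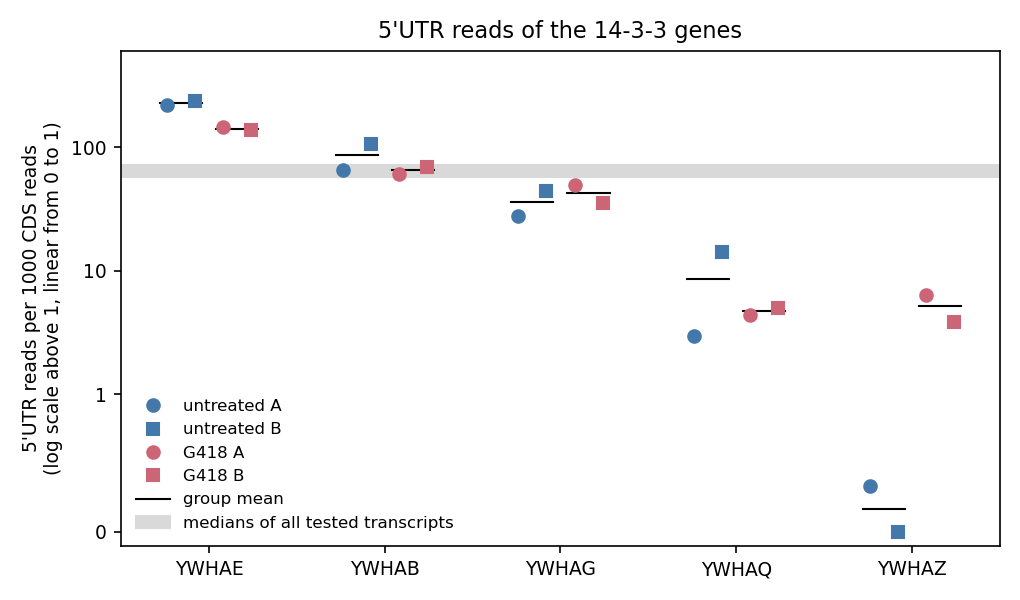
5′UTR reads per 1000 CDS reads (y axis, logarithmic above 1 and linear from 0 to 1) of the 5 listed 14-3-3 genes in each library, with symbols as in the plot of CDS density, and the range of the 4 library medians over 3656 tested transcripts in gray. YWHAE lies above the gray band and falls from 218 and 234 to 145 and 136, and YWHAZ is the lowest in untreated cells, at 0.335 and 0.

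Pooled over replicates, YWHAZ 5′UTR reads per CDS read were 21.03 times as high in G418-treated as in untreated cells, from 26 reads against 1, with an interval of 3.45 to 862. The fitted log2 fold change was 4.12 (SE 0.911), the highest of the 3656 tested. With 1 untreated read this fitted value depends on the small count that the fit adds, so the reads themselves are the firmer description. The call by which the family was chosen is this transcript's, 0.0274% of those tested with edgeR, and it is no finding about the members. YWHAZ was also the 1 tested transcript with 3 or fewer untreated 5′UTR reads, and its 27 reads in all compare with a median of 86. Without the CDS offset the fit called 9 transcripts higher and 54 lower, in place of 1 and 62, and the median log2 fold change was -0.02. YWHAZ was no longer called without G418 A, when its log2 fold change was 3.68, and it was not tested at a minimum of 50 reads. DESeq2 gave it a log2 fold change of 4.30 and no adjusted p-value. Without untreated B, the shallowest library, the log2 fold change was 3.78, and without untreated A it was 6.40.

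The next member below the threshold in the higher direction was YWHAG, with a 5′UTR log2 fold change of 0.32 (SE 0.317). Its 5′UTR reads per 1000 CDS reads were 27.7 and 44.2 in untreated and 49.3 and 35.3 in G418-treated cells, and the conditions overlapped. Without untreated A its log2 fold change was -0.05.

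YWHAE moved the other way and carried the most 5′UTR reads of the family. It had 612 and 243 reads in untreated A and B and 381 and 293 in G418 A and B, or 218 and 234 against 145 and 136 per 1000 CDS reads. Both G418 libraries were below both untreated ones, which held for 31.6% of transcripts tested. The log2 fold change was -0.68 (SE 0.118), against a median of -0.16 over all tested, and 1.7% of transcripts were called lower, this 1 member among them (1.72% were called in either direction). The call belongs to the contrast the family was picked from and is a description. It was lost when either G418 library was left out, with log2 fold changes of -0.73 and -0.64. Per nucleotide, the 5′UTR density of YWHAE was 67.1% ± 3.38 of its CDS density without and 41.7% ± 1.80 with G418 (SD, n = 2).

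YWHAB and YWHAQ showed no such separation. YWHAB had 65.4 and 105 5′UTR reads per 1000 CDS reads in untreated and 60.7 and 69.4 in G418-treated cells, with a log2 fold change of -0.35 (SE 0.213). YWHAQ had 12, 22, 17 and 17 5′UTR reads in untreated A, untreated B, G418 A and G418 B, or 2.98, 14.2, 4.41 and 4.97 per 1000 CDS reads. Its log2 fold change of -0.54 (SE 0.569) became 0.64 without untreated B, so the direction rested on that library. For both genes the conditions overlapped and neither was called. The ratio depends on the length of the counted CDS, which with its stop codon was 324 nt for YWHAE and 738 to 744 nt for the others listed, and a short CDS raises it. On this scale, over the counted 5′UTRs, YWHAE in untreated cells was higher than at least 83.6% of tested transcripts in both libraries. YWHAQ and YWHAZ were higher than at most 10.6%.

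**Figure D3:**
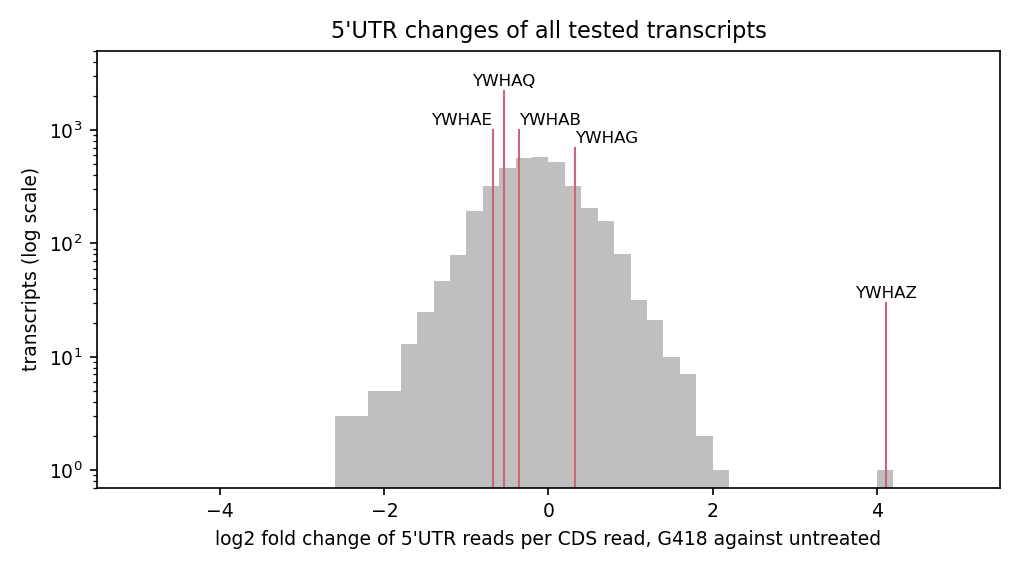
Distribution of the fitted log2 fold change of 5′UTR reads per CDS read, G418 against untreated (x axis), over 3656 tested transcripts (y axis, number of transcripts on a log scale, bars), with red lines at the 5 members. YWHAZ, at 4.12, lies apart from the other bars, and the other 4 members lie between -0.68 and 0.32.

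The transcripts outside the family whose 5′UTR pattern over the 4 libraries was nearest to that of YWHAZ were those of RAD54L2, DAPK3, AKAP11, CAMSAP2 and GLMN. Their Euclidean distances in centred log2 5′UTR reads per CDS read were 1.503, 1.55, 1.78, 1.78 and 1.88, against a median of 3.69 over all tested. DAPK3, a death associated kinase, had 5 and 1 5′UTR reads in untreated A and B and 18 and 18 in G418 A and B. CAMSAP2, a protein of microtubule minus ends, had 6 and 3 reads in untreated and 23 and 24 in G418-treated cells. None of these 5 was called higher, but YWHAZ was the 1 transcript that was. The 5 were also chosen by their distance, so neither point sets YWHAZ apart from them. Their fitted log2 fold changes ran from 1.59 to 2.01.

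Readthrough of the stop codon was measured by the ribosome readthrough score (RRTS), which divides RPF density upstream of the earliest in-frame termination codon of the 3′UTR (3′TC) by RPF density in the CDS. The RRTS of all 5 members was higher in both G418 libraries than in both untreated ones, which held for 65.3% of 6509 transcripts. In untreated A, untreated B, G418 A and G418 B it was 1.15%, 0%, 18.4% and 15.8% of CDS density for YWHAE. It was 1.22%, 0.309%, 5.96% and 6.57% for YWHAB, and 0.451%, 0.372%, 6.94% and 5.63% for YWHAG. The YWHAQ scores were 0.785%, 0%, 7.09% and 6.15%, and those of YWHAZ were 0.874%, 0%, 2.96% and 5.61%. Beta, gamma, theta and zeta therefore lay between 2.96% and 7.09% in G418-treated cells, and epsilon above 15%.

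The reads behind these scores are few in untreated cells. Between the NTC and the 3′TC, YWHAQ had 9 and 0 reads in untreated A and B and 78 and 60 in G418 A and B, over 201 counted nt. YWHAB had 11 and 1 against 49 and 45 over 189 nt, and YWHAG 3 and 1 against 40 and 27 over 273 nt. YWHAE had 2 and 0 against 30 and 21 over just 18 nt, and YWHAZ 1 and 0 against 3 and 5 over 27 nt. The fitted log2 fold changes per CDS read were 2.66 (SE 0.388) for YWHAB, 4.21 (SE 0.693) for YWHAE, 3.81 (SE 0.542) for YWHAG and 3.53 (SE 0.377) for YWHAQ, where the median of all tested was 3.18. All 4 were called higher, as were 82.6% of 2827 transcripts tested, with 0.0707% called lower and 82.7% called in either direction. YWHAE, YWHAG and YWHAQ reached the minimum of 10 such reads through the G418 libraries, with 2, 4 and 9 untreated reads, so nothing is read from their calls. Without untreated A the log2 fold changes were 4.25 for YWHAB, 7.38 for YWHAE, 3.99 for YWHAG and 8.80 for YWHAQ, and the median of all tested was 4.96. YWHAZ had under 10 reads and was not tested. Pooled, its score was 6.47 times as high with G418, from 8 reads against 1, with an interval of 0.867 to 287, so a change was not detectable at this depth.

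**Figure D4:**
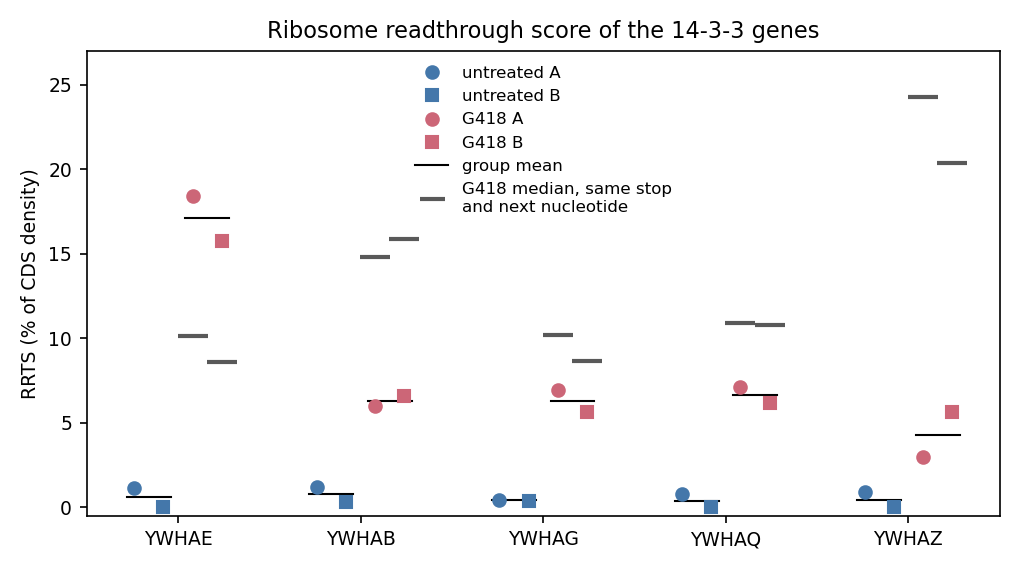
RRTS as a percentage of CDS density (y axis) of the 5 listed 14-3-3 genes in each library, with symbols as in the plot of CDS density and gray dashes for the G418 medians of transcripts with the same stop codon and next nucleotide. YWHAE lies above its gray dashes, and YWHAB, YWHAG, YWHAQ and YWHAZ lie below theirs in both G418 libraries.

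The scores were also set beside those of other transcripts that end in the same 4 nt and pass the minimum of mRNA reads. The 4 members counted at their MANE stop codon lay below the median in both G418 libraries. YWHAB was above 30.8% of UAAU transcripts in G418 A, where their median was 14.8%, and in G418 B that median was 15.8%. YWHAG was above 39.2% and 40.3% of UAAG transcripts in G418 A and B, whose medians were 10.2% and 8.64%. YWHAQ was above 38.5% and 36.2% of UAAA transcripts, with medians of 10.9% and 10.8%. YWHAZ was above 15.96% and 21.9% of UAAC transcripts, with medians of 24.3% and 20.4%. Its ranks rest on just 3 and 5 reads and are imprecise. YWHAE, counted at UAAG, was above 70.3% of such transcripts in G418 A. Set beside the transcripts that end in UGAG, the MANE context shown above, it was above 47.6% and 42.0% of them, with medians of 19.3% and 19.02%. These ranks describe single transcripts, and no test was made of them.

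Past the first in-frame 3′TC, YWHAE had 44 and 31 reads in G418 A and B, over 88 counted nt, and 0 in both untreated libraries. In the frame of its MANE stop codon the next stop begins 71 nt past the counted NTC, whereas the counted 3′TC begins at 21 nt. YWHAB, with 1899 counted nt past its 3′TC, had 12 and 0 reads in untreated and 5 and 6 in G418-treated cells. YWHAG had 12 and 0 against 7 and 6 over 2499 nt, and YWHAQ 5 and 2 against 7 and 4 over 1107 nt. YWHAZ, over 18 nt, had 1 and 1 reads against 3 and 4, too few to compare. These reads are not scaled to library depth. In YWHAB, YWHAG and YWHAQ the reads past the 3′TC overlapped between conditions, and the G418 reads of the 3′UTR lay mostly before it. With the whole 3′UTR counted, the log2 fold change was 1.84 for YWHAB, 2.14 for YWHAG and 2.82 for YWHAQ, but 5.51 for YWHAE.

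The proteins that 14-3-3 proteins act on were examined through 3 gene lists, of clients that bind when phosphorylated, kinases that write the docking site and phosphatases that remove it. The counts called in CDS reads are given beside 8.52% of all transcripts called in either direction, and nothing particular to the lists is read from them. Of 51 clients, 41 were tested, and WEE1 fell and 40 were not called. Of 30 kinases, 24 were tested, and AKT1 and MARK3 rose and 22 were not called. Of 10 phosphatase genes, 8 were tested, and PPP1CC rose and 7 were not called. The median log2 fold change was 0.06 for clients, 0.10 for kinases and 0.07 for phosphatases, against 0.00246 over all tested.

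AKT1, the kinase downstream of PI3 kinase that phosphorylates many 14-3-3 clients, had CDS densities of 7.15 and 5.65 RPKM in untreated and 15.1 and 12.9 RPKM in G418-treated cells. Its log2 fold change was 1.01 (SE 0.173, adjusted p = 0.00024, edgeR quasi-likelihood test), and it was called under all 9 alternatives. PPP1CC, a catalytic subunit of protein phosphatase 1, went from 237 and 183 to 331 and 319 RPKM, with a log2 fold change of 0.55 (SE 0.0918, adjusted p = 0.00018, edgeR). MARK3, a kinase that phosphorylates CDC25C, went from 16.7 and 13.2 to 23.0 and 21.5 RPKM, with a log2 fold change of 0.47 (SE 0.123, adjusted p = 0.012, edgeR). WEE1, the kinase that holds back entry into mitosis, went from 34.3 and 31.9 to 24.8 and 28.8 RPKM, a log2 fold change of -0.38 (SE 0.116, adjusted p = 0.039, edgeR). For all 4 the conditions did not overlap, as for 31.9% of listed transcripts in the higher and 13.6% in the lower direction. MARK3 and WEE1 were not called with DESeq2 or without either G418 library, and PPP1CC was not called without G418 B. WEE1 was also not called with library totals.

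**Figure D5:**
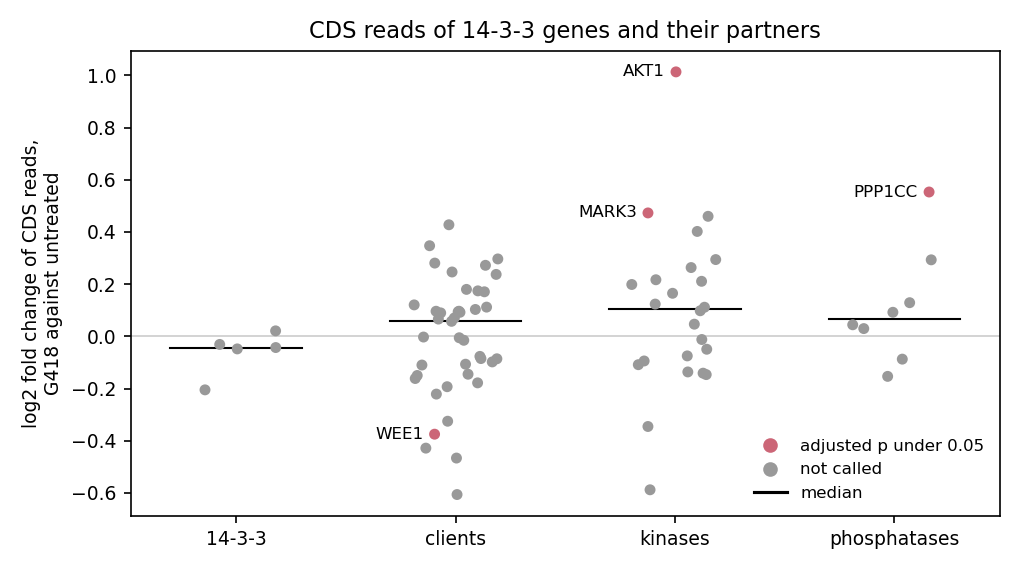
Fitted log2 fold change of CDS reads, G418 against untreated (y axis), for the tested genes of the 14-3-3 family and of the 3 partner lists (x axis), with red points for genes called at an adjusted p-value of 0.05, gray points for the others and a line for each median. The 4 named genes lie between -0.38 and 1.01, and no 14-3-3 gene was called.

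In the other regions the partners gave no 5′UTR call. None of 22 clients, 7 kinases and 6 phosphatase genes tested was called for 5′UTR reads per CDS read with edgeR, where 1.72% of all transcripts were, and DESeq2 called none. At an unadjusted p-value below 0.05 edgeR gave 3 of the phosphatase genes and none of the others, and DESeq2 gave none. Over all transcripts edgeR gave 506 of 3656 at that level. Readthrough was called higher for 10 of 12 clients, 5 of 8 kinases and 4 of 4 phosphatase genes tested, beside the 82.6% of all transcripts, and with DESeq2 for 7, 4 and 4. The minimum of 10 reads is summed over the 4 libraries, so genes could enter through their G418 reads, and nothing is read from these counts.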

How the data were processed

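The authors removed duplicate reads by sequence and molecular identifier, discarded noncoding RNA, and aligned reads with STAR to hg38 under GENCODE, keeping 1 alignment of reads that map to several places and 1 transcript per gene. Counts were deposited by the authors as unnormalized RPFs per region. The deposited RPM values scale those RPFs to mapped reads, and the deposited RPKM densities divide them by region length with nucleotides next to start and stop codons left out. RRTS is a ratio that the authors computed from these densities. The deposited 5′UTR densities, treated as a score because some are below 0, were not used. Whole reads were recovered from RPM (100% of values were whole multiples of 1 read) and are the deposited count or 1 more. On them the tests call 1 transcript higher and 62 lower for 5′UTR reads. CDS counts (TMM, low counts filtered), 5′UTR reads (at least 20, and 128 CDS reads per condition) and reads before the 3′TC (at least 10, and 128 mRNA reads per condition) were tested with edgeR's quasi-likelihood test, the last 2 with log(CDS reads + 0.5) as offset, and Benjamini-Hochberg adjustment over all transcripts tested. Whether A and B are separate cultures is not given in the labels, but the study calls them biological replicates. Members and lists were chosen with earlier results of these data known. Named genes are the members, SFN, at most 4 called genes per direction per list (1 list gene is not reported here), and the 5 transcripts nearest to YWHAZ in centred log2((5′UTR reads + 0.5)/(CDS reads + 0.5)). Alternatives were DESeq2, other minimums, scalings and counted regions, a replicate block and each library left out. On data simulated with a common dispersion for all transcripts and both conditions, 98% of 4-fold rises in 5′UTR reads over 3656 transcripts were recovered. False calls were 1.2%, and 67% of falls to 0.25 were recovered. The untreated replicates here varied more than the G418 ones, so these rates need not hold for these libraries. Fits were run in R 4.3.3 with edgeR 4.0.16 and, as an alternative, DESeq2 1.42.0. Tables and plots were made in Python 3.11.15 (scipy 1.17.1, pandas 2.3.3, numpy 2.4.6, matplotlib 3.10.9).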

Additional observations from a re-analysis of the deposited data

How the results depend on the processing

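The YWHAZ 5′UTR log2 fold change of 4.12 became 3.68 to 6.40 with a library left out. Its sign was fixed by the choice of the family and is no sign of stability. The count of transcripts called higher for 5′UTR reads was 1, but 0 at a minimum of 50 reads or with DESeq2, 9 without the CDS offset and 0 to 51 with a library left out. The lower calls, 62, became 41 with DESeq2 and 11 to 357 with a library left out. For CDS reads, 451 higher and 273 lower calls became 887 and 120 with library totals, 113 and 140 with DESeq2, and 57 to 990 and 15 to 1092 with a library left out. Partner genes called, 4, became 8, 2 and 1 to 16 in the same order. Readthrough calls, 2336 higher and 2 lower, became 1536 higher at a minimum of 20 reads, 1408 and 1 with DESeq2, 10 lower over the whole 3′UTR, and 1496 to 2265 higher and 1 to 2 lower with a library left out. The fits with 1 library in a condition assume that it varies like the other condition. The cause of these shifts was not tested.

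With the letter as a replicate block, 6 transcripts were called higher and 84 lower for 5′UTR reads, and 618 higher and 452 lower for CDS reads, with 7 partner genes among these. The A minus B differences of the conditions correlated over transcripts (r = 0.276, n = 5715), but the labels tie the letters to nothing shared, so no pairing was assumed. Of 131 other member values, 108 moved by less than the spread between replicates. Many of these come from fits with a library left out or with nearly the same reads. A small move is then partly built in and is no sign of stability. Few reads stand behind the untreated values before the 3′TC and behind the YWHAZ 5′UTR values, which limits their precision.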
